A study of Homo sapiens with 10 samples.

Results

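The genes described here are 36 genes of the NF-kB pathway and of endothelial activation, out of 58735 lines in the deposited table: adhesion molecules, chemokines, cytokines, colony-stimulating factors, the NF-kB subunits and the feedback genes of the pathway. They were chosen by symbol, and all 36 symbols were found, each on 1 line. Of these, 28 passed the filter on low counts and were tested, and 8 did not (SELE, SELP, CXCL10, CXCL11, CCL5, IL11, IL1A and IL1B). The labels call the cells HCMECs, endothelial cells of human brain, and give the sample type as a cell line without its name. Cells of 5 libraries received a control siRNA (siCtrl) and cells of the other 5 an siRNA against the deubiquitinase USP9X (siUSP9X), for 48 h, and cells of all 10 libraries were then given the ligand Wnt3a for 12 h. No library came from cells without Wnt3a or from cells given an inflammatory cytokine, so each value below is a level in Wnt3a-treated cells and each difference is between the siRNAs. Whether libraries of 1 group were separate cultures is not in the labels, and the spread behind the p-values may therefore be technical.

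NF-kB is a family of dimeric transcription factors built from RELA, RELB, REL and the processed products of NFKB1 and NFKB2. Inhibitors such as the NFKBIA product hold the dimers in the cytoplasm until ubiquitin-dependent signalling from cytokine or pattern-recognition receptors removes them. In vascular endothelium the released dimers switch on adhesion molecules that capture leukocytes, chemokines that attract them, cytokines and growth factors that act on them, and the pathway's own inhibitors, which end the response.

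Total counts ran from 15958362 to 26467787 per library. USP9X mRNA stood at 283 to 415 CPM (counts per 1e+06 counts of the scaled library total) in siCtrl and at 20.7 to 68.7 CPM in siUSP9X. The highest siUSP9X value was that of replicate 2, and the other siUSP9X libraries were at 20.7 to 36.5 CPM. The library siUSP9X replicate 2 stood apart: its share of ribosomal protein counts was 2.15%, where the other 9 libraries had 4.48 to 6.45%, and its share of the mitochondrial rRNA MT-RNR2 was 1.40%, where they had 0.380 to 0.573%. Each result below is therefore given with and without that library where this matters. Of 18 endothelial markers, 13 averaged under 1 CPM. The defining markers PECAM1, CDH5 and VWF held 8, 53 and 5 counts over the 5 siCtrl libraries together (0.0794, 0.526 and 0.0496 CPM). Other genes of that list were expressed, with siCtrl means of 161 CPM for ESAM, 90.1 for PROCR, 83.97 for ENG and 27.4 for EGFL7, named here after their values were seen. Of 11 epithelial markers, 7 averaged under 1 CPM and 3 of these had 0 counts, but 2 keratin genes were abundant, with siCtrl means of 2153 CPM for KRT8 and 1578 CPM for KRT18, and both fell in siUSP9X (log2 fold changes of -0.45 and -0.74). When each library was left out in turn, KRT8 kept its call in 3 of 10 fits and KRT18 in all 10. The summed level of the 11, nearly all from KRT8 and KRT18, was 3320 to 4180 CPM in siCtrl and 2035 to 2759 CPM in siUSP9X, and its part in the results below was not tested. The summed level of 10 leukocyte and microglia markers was at most 3.14 CPM in any library. In such bulk RNA, fewer cells that express a gene and less RNA per cell cannot be told apart.

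NF-kB dimers bind a 10-base element, the kappaB site, and the promoters of the members show how common it is among them. RefSeq promoters (GRCh38.p14, 250 bases before to 50 after each gene's start) were found for 29 of the 36 members. On either strand, 16 of these 29 (55.2%) held a match to the kappaB consensus, against 10.8% of all 27305 promoters of that length. The stretches below are shown because they carry the element in the chemokine genes CXCL1, CXCL2 and CXCL3, in the feedback gene NFKBIA, in IRF1, in NFKB1, in IL6 and in VCAM1. Each is 60 bases, written 5′ to 3′ on the gene's strand, with the match in capitals.
CXCL1 (chr4:73869290-73869349, plus strand): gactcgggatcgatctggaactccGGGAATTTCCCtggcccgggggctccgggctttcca
CXCL2 (chr4:74099238-74099297, minus strand): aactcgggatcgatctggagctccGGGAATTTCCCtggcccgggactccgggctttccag
CXCL3 (chr4:74038733-74038792, minus strand): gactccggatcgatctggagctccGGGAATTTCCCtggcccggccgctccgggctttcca
NFKBIA (chr14:35404796-35404855, minus strand): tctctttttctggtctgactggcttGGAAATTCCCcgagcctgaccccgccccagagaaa
IRF1 (chr5:132490789-132490848, minus strand): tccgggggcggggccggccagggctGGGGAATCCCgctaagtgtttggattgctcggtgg
NFKB1 (chr4:102501285-102501344, plus strand): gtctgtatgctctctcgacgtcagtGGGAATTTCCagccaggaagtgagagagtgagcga
IL6 (chr7:22727102-22727161, plus strand): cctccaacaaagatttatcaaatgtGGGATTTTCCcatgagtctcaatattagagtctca
VCAM1 (chr1:100719655-100719714, plus strand): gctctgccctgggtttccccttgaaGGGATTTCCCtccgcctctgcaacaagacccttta

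CXCL1, CXCL2 and CXCL3 carry 2 overlapping matches each, and any pair of them shares 38 of the first 40 bases shown. The match nearest to the start begins 78 bases before it in CXCL1 and CXCL3, 77 in CXCL2, 81 in NFKBIA, 50 in IRF1, 49 in NFKB1, 73 in IL6 and 62 in VCAM1. Among the tested members, the 13 with a match had a median log2 fold change of -0.24 and the 9 without one had -0.18. Both medians include siUSP9X replicate 2 and were not computed without it. Groups did not overlap for 4 of the 13 and 2 of the 9, each with siUSP9X lower, as it was for 955 of all 13934 tested genes (6.85%). CSF2, CXCL8, ICAM1, NFKB2 and RELA are among the members with no match in this window, which says only that these letters are not there.

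Many of the 36 genes were well expressed in the control cells, and their levels spread widely. Levels between genes are compared here as mean CPM per kb of annotated exon. In siCtrl, 4 members stood above 100 CPM per kb, 17 above 10 and 26 above 1. CXCL1, a neutrophil chemokine, was the highest at 319 CPM per kb, followed by the leukocyte adhesion molecule gene ICAM1 (133), TNFAIP2, a gene named for its induction by TNF (131), and NFKBIA, which encodes the inhibitor IkB-alpha (112). CCL20, LIF and CXCL8 followed at 63.4, 54.5 and 46.3 CPM per kb. At the other end VCAM1, the ligand of leukocyte integrin alpha-4, stood at 0.150 CPM per kb, and the tested members spanned a 2125-fold range. Some neighbours in this order, such as ICAM1 and TNFAIP2, lay closer than their spread between libraries.

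**Figure D1:**
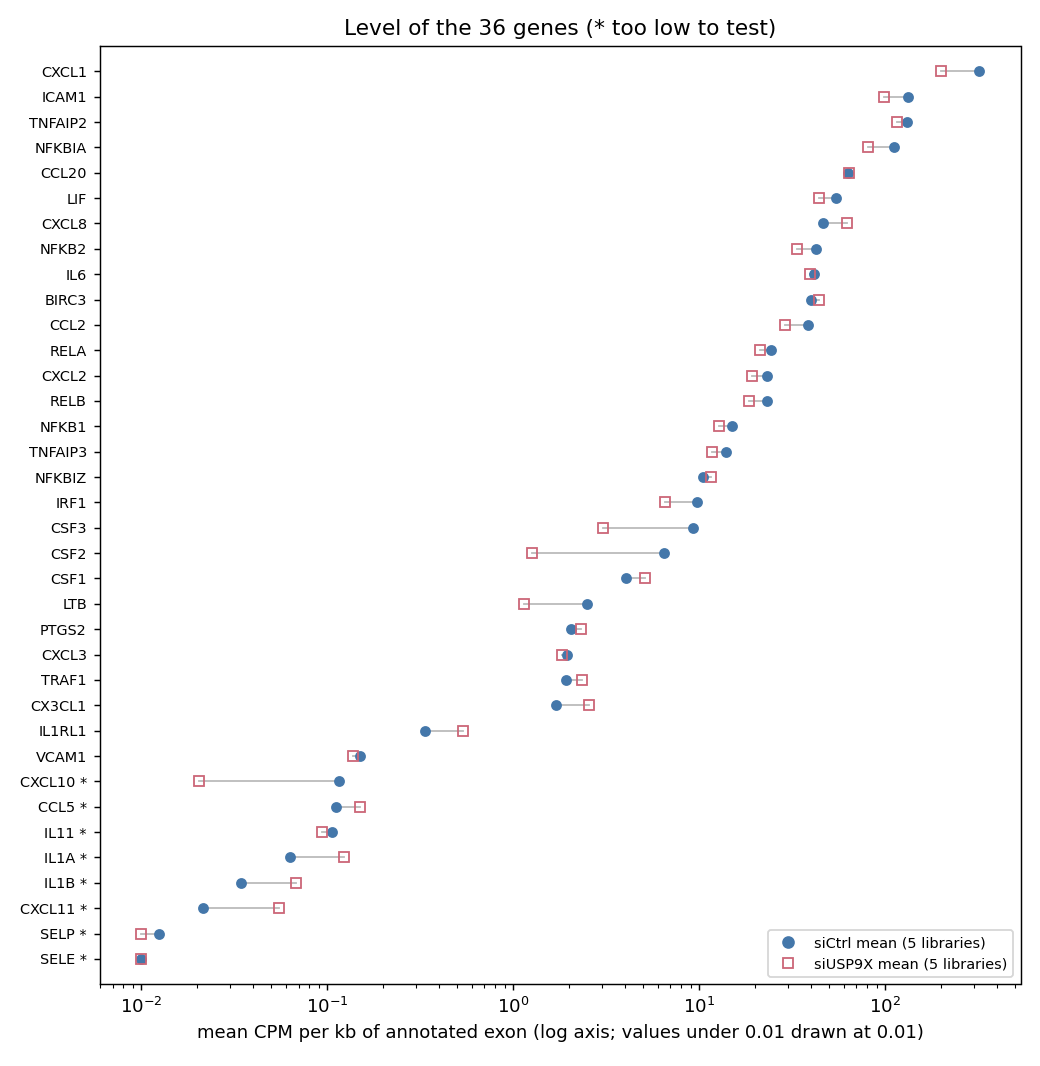
Mean CPM per kb of annotated exon on a log axis for the 36 genes, ordered by their siCtrl level, with filled circles for siCtrl and open squares for siUSP9X (means of 5 libraries each). CXCL1 is at the top with 319 in siCtrl, and the widest gaps among tested genes are those of CSF2 and CSF3, whose squares lie to the left.

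The genes too low to test included both endothelial selectins. SELE, the E-selectin gene and a classic mark of cytokine-activated endothelium, had 0 counts in all 10 libraries, which allows up to 0.0298 CPM in siCtrl and 0.0350 CPM in siUSP9X (3 counts over each group). SELP, the P-selectin gene, had 4 counts, all in siCtrl replicate 2. The interferon-inducible chemokine genes CXCL10 and CXCL11 had 13 and 5 counts over the siCtrl libraries and 2 and 9 over the siUSP9X libraries. For CXCL10, 10 of the 13 counts were in siCtrl replicate 2. CCL5 had 16 and 19 counts, IL11 had 27 and 21, and IL1A had 13 and 22. IL1B, which encodes interleukin-1 beta, had 10 counts over 4 siCtrl libraries and 19 in siUSP9X, all 19 in replicate 2. Exact 95% Poisson intervals of the pooled levels, which cover counting error only, overlapped between the groups for all 8 of these genes.

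Knockdown of USP9X went with lower mRNA of the colony-stimulating factors CSF2 and CSF3, but not of CSF1. Of the 28 tested members, 2 fell (CSF2 and CSF3), 0 rose and 26 were not called (edgeR quasi-likelihood test, adjusted p under 0.05). Over all 13934 tested genes 7.31% passed, 3.22% as lower and 4.09% as higher, so the share of members that passed (7.14%) was near that of all genes. At an unadjusted p under 0.05 there were 10 lower and 4 higher members, against 1660 lower and 2217 higher of all 13934 tested genes. In either direction that is 50% of the tested members and 27.8% of all tested genes. DESeq2 called 8 members lower and 1 higher, against 1078 lower and 1264 higher of all 13934 tested genes. With limma-voom 3 members were lower and 1 higher, against 491 lower and 546 higher of all tested genes. The groups were fully apart, with siUSP9X lower, for 8 members (28.6%), against 6.85% of all tested genes, and with siUSP9X higher for 0, against 7.79%. The median log2 fold change was -0.22 over the tested members and 0.026 over all tested genes. Because the members were chosen with earlier results of these data known, these shares and medians describe the set and do not test it.

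siUSP9X replicate 2 widened the spread of most members. It was the lowest of all 10 libraries for 18 tested members and the highest for 4 (CXCL8, IL1RL1, BIRC3 and PTGS2). The median coefficient of variation over the tested members was 10.6% in siCtrl, 22.3% in siUSP9X and 9.50% in the 4 siUSP9X libraries without replicate 2. Without that library 9 members were lower (ICAM1, CXCL1, CCL2, CSF2, CSF3, LTB, NFKB1, NFKBIA and IRF1) and 4 higher (CX3CL1, IL1RL1, CSF1 and TRAF1), where 11.5% of all 14086 tested genes were lower and 11.9% higher. The median log2 fold change was then -0.17 over the members and 0.0072 over all tested genes. All 9 lower members and all 4 higher members had the same sign with 10 libraries, but the fits share 9 libraries, so this does not test those calls.

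**Figure D2:**
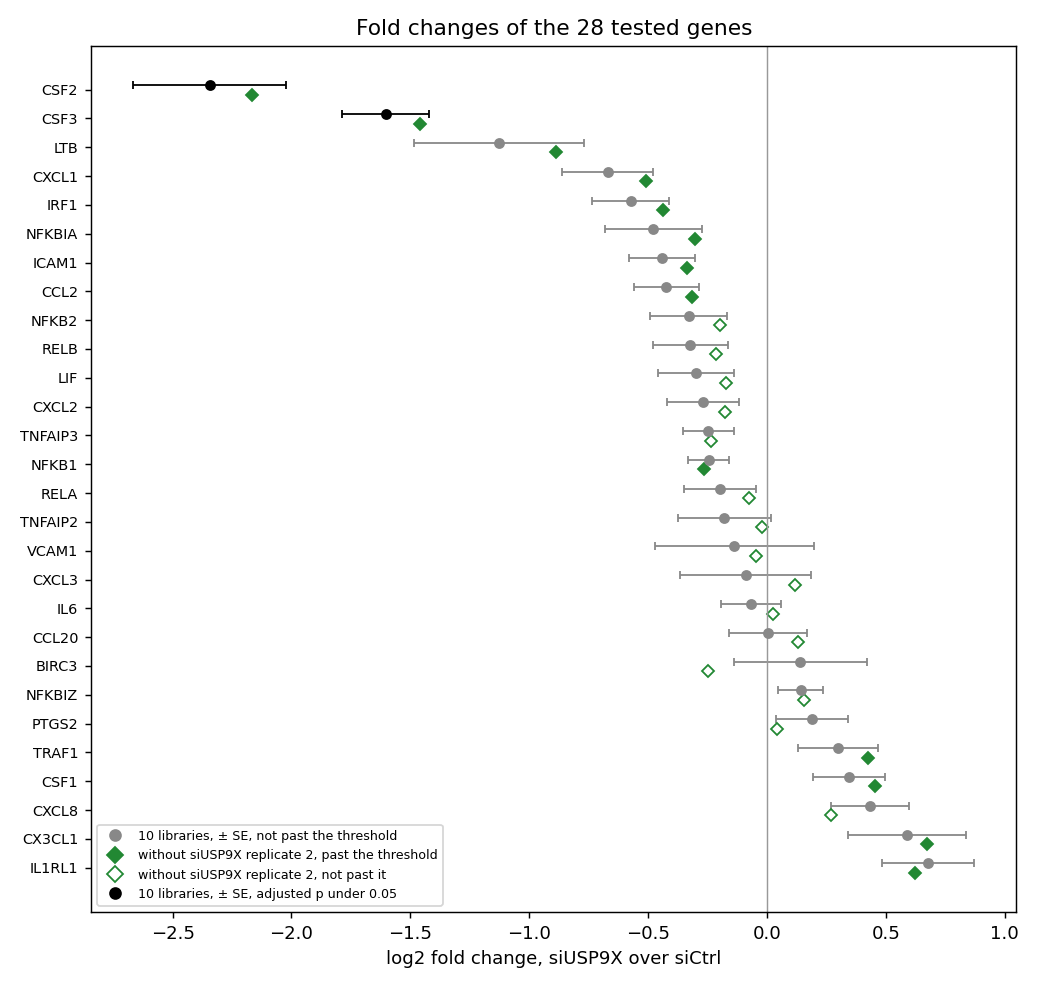
Log2 fold change of siUSP9X over siCtrl for the 28 tested genes, as circles with SE for all 10 libraries (black where the adjusted p was under 0.05) and as diamonds for the fit without siUSP9X replicate 2 (filled where it was under 0.05). CSF2 and CSF3 lie farthest to the left in both fits, and BIRC3, CXCL3 and IL6 change sign between the fits.

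The colony-stimulating factors are secreted proteins that drive the growth and activation of myeloid cells, and the 3 genes did not move alike. CSF2, which encodes GM-CSF (ENSG00000164400.5, chromosome 5, 132073790 to 132076170, plus strand, GRCh38), was measured at 4.13, 5.83, 4.95, 4.58 and 5.93 CPM in siCtrl replicates 1 to 5. In siUSP9X replicates 1 to 5 it was at 0.822, 0.498, 2.11, 0.862 and 0.697 CPM. All 5 siUSP9X libraries were below all siCtrl libraries, with replicate 3 the highest of them. From a mean of 5.08 ± 0.784 CPM it fell to 0.997 ± 0.637 CPM (SD, n = 5 per group). On the log2 scale this is -2.34 ± 0.32 (SE), with an edgeR adjusted p of 0.00216. These levels rest on 79 to 121 counts per siCtrl library and 9 to 36 per siUSP9X library.

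CSF3, which encodes the neutrophil growth factor G-CSF (ENSG00000108342.12, chromosome 17, 40015361 to 40017813, plus strand), was at 18.01, 21.1, 20.4, 21.3 and 21.97 CPM in siCtrl. It was at 6.99, 3.93, 8.66, 7.75 and 6.50 CPM in siUSP9X. The groups did not overlap, and the highest siUSP9X library was less than 50% of the lowest siCtrl library. Its mean level fell to 6.77 ± 1.79 CPM, where siCtrl had 20.6 ± 1.54 CPM (SD, n = 5 per group), a log2 difference of -1.604 ± 0.18 (SE, adjusted p = 0.000651 with edgeR). CSF2 and CSF3 kept their calls whichever of the 10 libraries was left out, and without siUSP9X replicate 2 their log2 fold changes were -2.17 and -1.46. In the order of p over all 13934 genes CSF3 was number 42 and CSF2 number 81.

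CSF1, which encodes the macrophage growth factor M-CSF, went the other way. It was at 21.8, 18.3, 20.8, 22.2 and 26.2 CPM in siCtrl and at 31.9, 19.2, 29.1, 30.7 and 28.1 CPM in siUSP9X. Replicate 2 was the 1 siUSP9X library inside the siCtrl range, and the other 4 lay above it. With all libraries its log2 fold change was 0.35 ± 0.15 (SE, edgeR adjusted p = 0.159), and without replicate 2 it was 0.45 (adjusted p = 0.00337).

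Of the CXC chemokine genes 4 were tested, all attractants of neutrophils and all in 1 region of chromosome 4, and the values of CXCL1 and CXCL8 differed in direction. CXCL1 (ENSG00000163739.4, 73869393 to 73871242, plus strand) was at 443, 458, 412, 354 and 399 CPM in siCtrl and at 266, 139, 307, 308 and 279 CPM in siUSP9X. All siUSP9X libraries were below all siCtrl libraries, and replicate 2 was far below the other 4. Means were 413 ± 40.9 CPM with the control siRNA and 260 ± 70.2 CPM with the siRNA against USP9X (SD, n = 5 per group). The difference of -0.67 ± 0.19 on the log2 scale (SE) just missed the threshold (edgeR adjusted p = 0.0571). Without replicate 2 CXCL1 fell by 0.51 on the log2 scale (adjusted p = 0.000281).

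CXCL8, which encodes interleukin-8, was at 110, 112, 108, 91.1 and 105 CPM in siCtrl. It was at 110, 203, 153, 113 and 131 CPM in siUSP9X, where 4 of 5 libraries were above the whole siCtrl range. Its log2 fold change of 0.43 ± 0.16 did not pass the threshold (edgeR adjusted p = 0.1195), nor did the value of 0.27 without replicate 2 (adjusted p = 0.051). Mean siCtrl levels were 34.8 ± 4.52 CPM for CXCL2 and 4.32 ± 0.861 CPM for CXCL3, and the siUSP9X means were 28.9 ± 5.59 and 4.05 ± 1.43 CPM (SD, n = 5 per group). Neither passed the threshold, and the sign of CXCL3 turned without replicate 2 (log2 fold change -0.09 with all libraries and 0.12 without). CXCL1, CXCL2 and CXCL3 are close paralogs, and 5.73%, 9.24% and 5.26% of the 50-base words of their annotated transcripts occur in another gene, nearly all in each other, so a share of their reads could have been split between them in counting.

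The remaining tested chemokines bind receptors of monocytes and lymphocytes. CCL2, which attracts monocytes, was at 66.5, 83.8, 79.5, 75.3 and 79.3 CPM in siCtrl and at 64.3, 39.9, 60.7, 63.6 and 58.0 CPM in siUSP9X. The groups did not overlap, though siCtrl replicate 1 lay only just above siUSP9X replicate 1. Over all libraries the difference was -0.42 ± 0.14 on the log2 scale (SE, edgeR adjusted p = 0.0801), and without siUSP9X replicate 2 it was -0.32 (adjusted p = 0.00979). CCL20, a ligand of the lymphocyte receptor CCR6, had the same mean of 101 CPM in both groups, with SDs of 10.04 CPM in siCtrl and 23.3 CPM in siUSP9X (n = 5 per group), and siUSP9X replicate 2 was at 65.4 CPM, with the other siUSP9X libraries at 91.3 to 123 CPM.

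CX3CL1, or fractalkine, a chemokine made as a membrane-bound protein, was at 7.26, 9.22, 6.86, 13.2 and 14.3 CPM in siCtrl. In siUSP9X it was at 18.96, 11.6, 17.5, 18.03 and 10.7 CPM, so the groups overlapped, with 3 of 5 siUSP9X libraries above all siCtrl libraries. This gave a log2 difference of 0.59 ± 0.25 (SE, edgeR adjusted p = 0.148), and of 0.67 (adjusted p = 0.0307) without replicate 2.

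**Figure D3:**
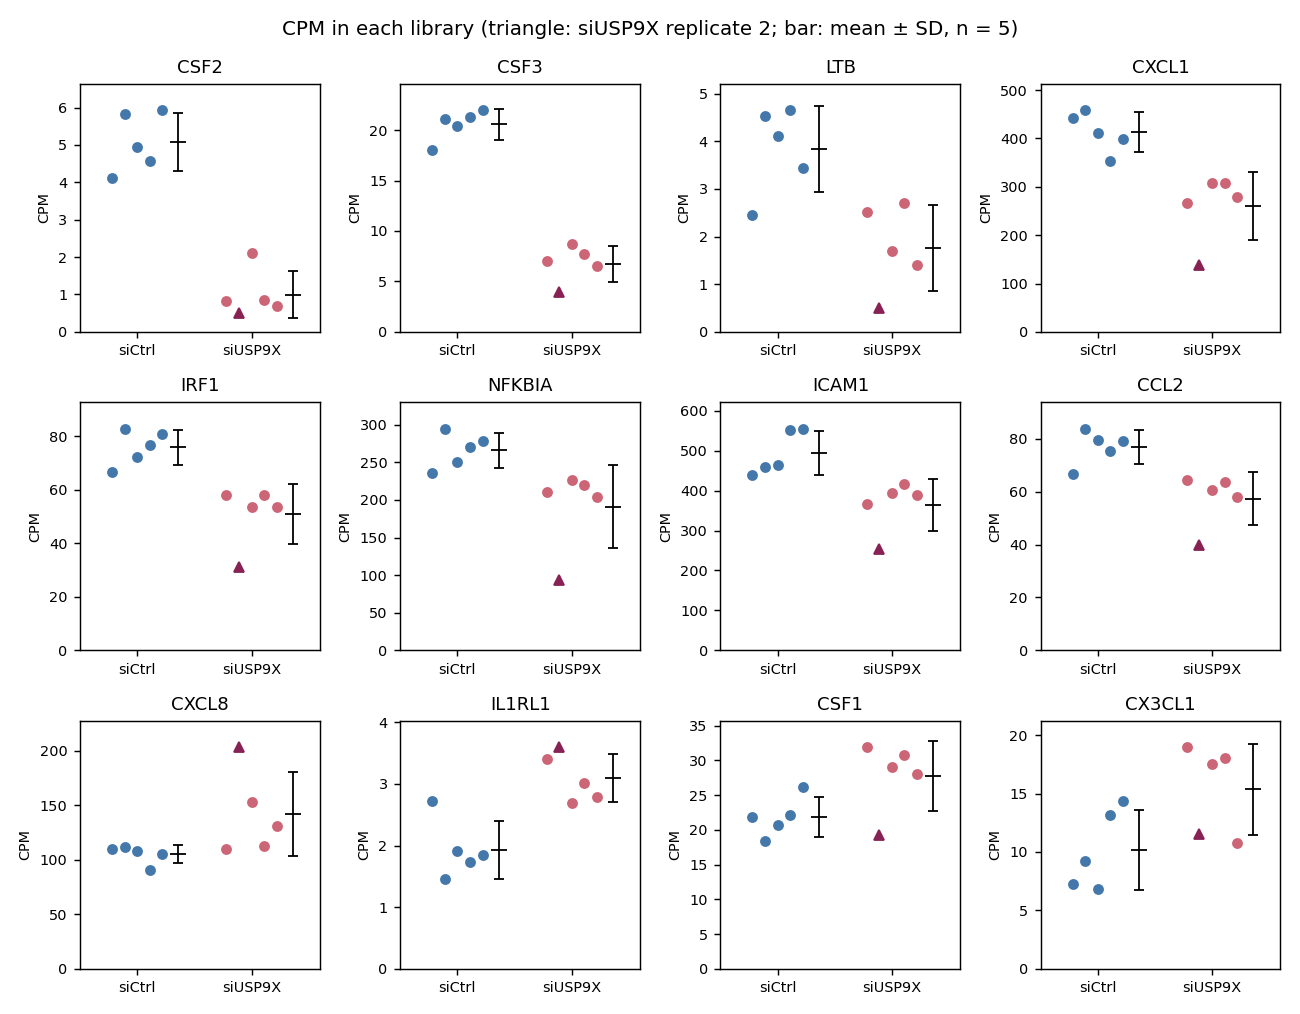
CPM in each library for 12 of the genes, siCtrl in blue and siUSP9X in red, with a triangle for siUSP9X replicate 2 and bars for the mean and SD of 5 libraries. The groups do not overlap for CSF2, CSF3, CXCL1, IRF1, NFKBIA, ICAM1 and CCL2, while the triangle lies above all other points for CXCL8 and IL1RL1.

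Among adhesion molecules only ICAM1 was well expressed. ICAM1 (ENSG00000090339.8, chromosome 19, 10270835 to 10286615, plus strand), the endothelial ligand of leukocyte beta-2 integrins, was at 440, 460, 464, 552 and 555 CPM in siCtrl. It was at 365, 254, 394, 416 and 390 CPM in siUSP9X, below every siCtrl library in 5 of 5. Means were 494 ± 54.8 and 364 ± 63.97 CPM (SD, n = 5 per group), which differ by -0.44 ± 0.14 on the log2 scale (SE, edgeR adjusted p = 0.0764). Without replicate 2 it fell by 0.33 on the log2 scale (adjusted p = 0.00667). VCAM1 stood at 0.908 ± 0.345 and 0.830 ± 0.234 CPM, from 6 to 27 counts per library, with a log2 fold change of -0.14 ± 0.34.

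The cytokine genes of the IL-6 family, whose receptors share the IL6ST subunit, had 0 calls among the 2 tested with edgeR, DESeq2 or limma-voom, and 0 at an unadjusted p under 0.05. IL6 was at 80.4 to 95.8 CPM in siCtrl and at 60.7 to 92.4 CPM in siUSP9X, a log2 difference of -0.07 ± 0.13 (SE, edgeR adjusted p = 0.740) that became 0.026 without replicate 2. LIF, leukaemia inhibitory factor, was at 176 to 245 CPM in siCtrl and at 113 to 205 CPM in siUSP9X, with a log2 fold change of -0.30 ± 0.16 (adjusted p = 0.238) that became -0.17 without replicate 2.

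IL1RL1, the gene of the IL-33 receptor ST2, was low and its values were higher in siUSP9X. It was at 2.72, 1.46, 1.91, 1.74 and 1.85 CPM in siCtrl and at 3.41, 3.59, 2.69, 3.02 and 2.79 CPM in siUSP9X. Only siCtrl replicate 1 reached into the siUSP9X range. Its log2 difference of 0.68 ± 0.19 (SE) just missed the threshold (edgeR adjusted p = 0.0554), and it passed the threshold without siCtrl replicate 1 (0.83, adjusted p = 0.0288) or without siUSP9X replicate 2 (0.62, adjusted p = 0.0385). Its exons overlap those of IL18R1 on the same strand.

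LTB, which encodes the TNF family ligand lymphotoxin beta, a driver of the NFKB2 branch of the pathway, was at 2.45, 4.53, 4.11, 4.65 and 3.44 CPM in siCtrl. In siUSP9X it was at 2.52, 0.498, 1.70, 2.71 and 1.39 CPM, where 3 of 5 libraries lay below the whole siCtrl range. The difference of -1.13 ± 0.36 on the log2 scale (SE, edgeR adjusted p = 0.0757) was the third largest decrease among the members, and -0.89 (adjusted p = 0.0109) without replicate 2. These values rest on 9 to 123 counts per library.

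The 4 tested NF-kB subunit genes had negative log2 fold changes between -0.33 and -0.20, and none passed the threshold with edgeR. For NFKB1, which encodes the p50 precursor, the groups did not overlap, at 89.1 to 102 CPM in siCtrl and 75.1 to 83.8 CPM in siUSP9X. Its log2 fold change was -0.24 ± 0.09 (SE, edgeR adjusted p = 0.103), with replicate 2 the highest siUSP9X library, and -0.26 (adjusted p = 0.0170) without that library. At an unadjusted p under 0.05 there was 1 of the 4, NFKB1. Means of NFKB2, RELA and RELB were 190 ± 19.2, 134 ± 10.6 and 70.4 ± 10.2 CPM with the control siRNA. With siUSP9X they were 151 ± 33.5, 116 ± 24.1 and 56.3 ± 11.02 CPM (SD, n = 5 per group). For these 3 genes siUSP9X replicate 2 was the lowest library, at 93.8, 74.8 and 38.9 CPM. Their log2 fold changes of -0.33, -0.20 and -0.32 became -0.20, -0.073 and -0.21 without it.

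Feedback genes and signalling partners differed among themselves. NFKBIA (ENSG00000100906.10, chromosome 14, 35401511 to 35404749, minus strand) was at 235, 295, 250, 271 and 279 CPM in siCtrl and at 211, 93.8, 226, 220 and 204 CPM in siUSP9X. The groups did not overlap, and replicate 2 was below 50% of each other library. On the log2 scale the difference was -0.48 ± 0.20 (SE, edgeR adjusted p = 0.157) with all libraries and -0.30 (adjusted p = 0.0082) without replicate 2. TNFAIP3, which encodes the ubiquitin-editing inhibitor A20, had -0.25 ± 0.11 (adjusted p = 0.163), and NFKBIZ, an atypical nuclear IkB, 0.14 ± 0.09 (adjusted p = 0.324).

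BIRC3 and TRAF1 act in TNF receptor complexes. BIRC3, which encodes the ubiquitin ligase cIAP2, was at 646 CPM in siUSP9X replicate 2 and at 203 to 288 CPM in the other 4 siUSP9X libraries, against 251 to 365 CPM in siCtrl. Its log2 fold change was therefore 0.14 ± 0.28 with all libraries and -0.25 without that library (edgeR adjusted p = 0.752 and 0.131). TRAF1 was at 10.4 to 13.7 CPM in siCtrl and at 17.6, 9.84, 18.7, 14.7 and 15.2 CPM in siUSP9X, and all siUSP9X libraries but replicate 2 were above the siCtrl range. Its log2 fold change was 0.30 ± 0.17 (adjusted p = 0.254), and 0.42 (adjusted p = 0.0128) without replicate 2.

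Of the other induced genes, IRF1 had the lowest p. IRF1 (ENSG00000125347.13, chromosome 5, 132481609 to 132490798, minus strand), a transcription factor of both the interferon and the NF-kB response, was at 66.8, 82.9, 72.3, 76.8 and 80.7 CPM in siCtrl. It was at 58.2, 31.2, 53.7, 58.2 and 53.7 CPM in siUSP9X, with no overlap between groups. It differed by -0.57 ± 0.16 on the log2 scale (SE, edgeR adjusted p = 0.0549), and by -0.44 (adjusted p = 0.000967) without replicate 2. TNFAIP2 was at 535 to 759 CPM in siCtrl and 593 to 729 CPM in siUSP9X apart from replicate 2 at 316 CPM, with log2 fold changes of -0.18 and, without that library, -0.020. PTGS2, which encodes the inducible prostaglandin synthase COX-2, was at 16.9 CPM in replicate 2 and at 10.1 to 12.2 CPM in the other siUSP9X libraries, against 9.39 to 11.7 CPM in siCtrl. Exons of ICAM1, IL6, LIF, RELA, TNFAIP3 and IRF1 overlap a gene on the opposite strand. The library kit keeps strand, but no source says if counting used it.

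**Figure D4:**
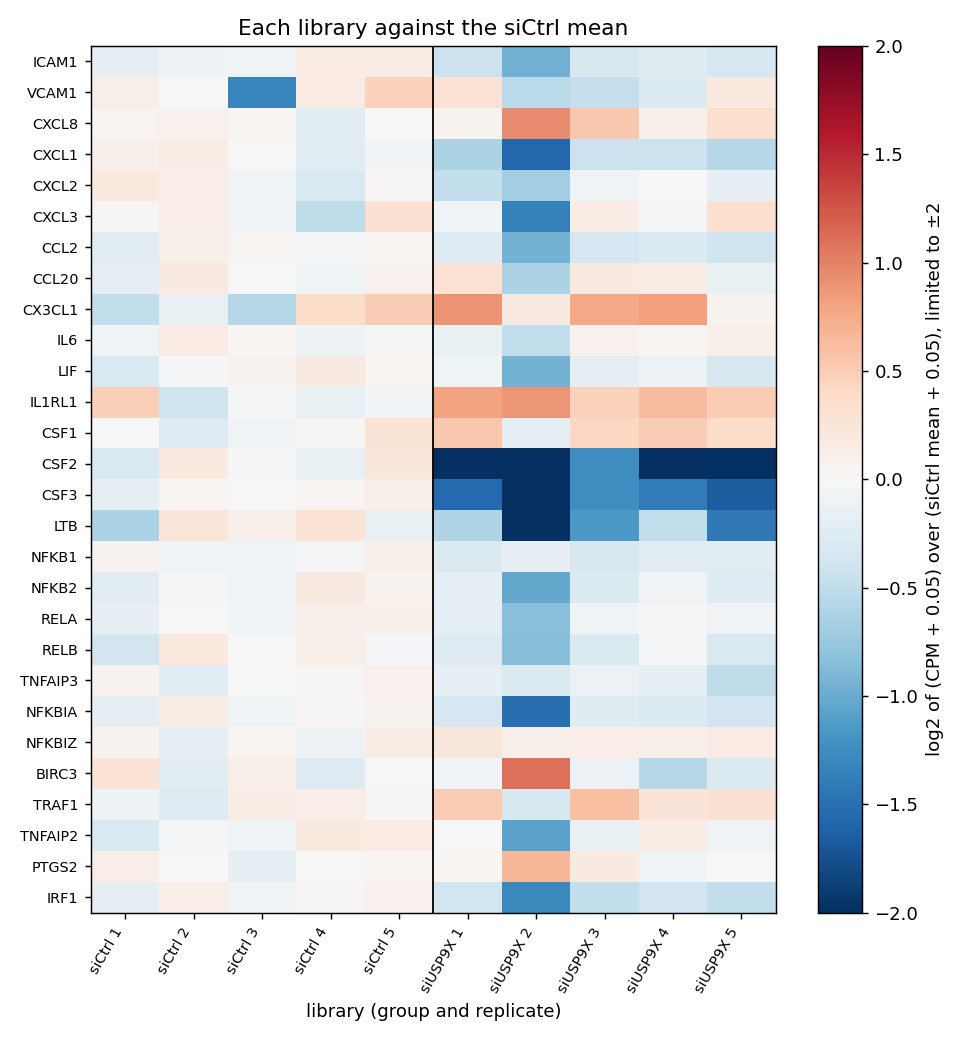
Log2 of CPM + 0.05 in each library over the siCtrl mean + 0.05, for the 28 tested genes in rows and the 10 libraries in columns, with blue for lower and red for higher, limited to ±2. CSF2 and CSF3 are blue in all 5 siUSP9X columns, and the column of siUSP9X replicate 2 is blue for most genes and most strongly red for CXCL8, BIRC3, PTGS2 and IL1RL1.

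The mRNAs of cytokines and chemokines often carry AU-rich elements in the 3′ UTR, which bind proteins that control their decay. The element ATTTATTTA was counted in the longest annotated 3′ UTR of each gene (GENCODE release 29), and 10 of the 36 members (27.8%) held it. Of the 28 tested members 7 held it (CXCL8, CXCL1, CXCL2, CSF2, BIRC3, PTGS2 and IRF1), against 7.99% of 11934 tested genes with a 3′ UTR, 5.83% of the lower genes and 12.1% of the higher genes. The sites of CSF2, CXCL1 and CXCL2 are shown because CSF2 and CXCL2 held the most copies among tested members and CXCL1 belongs beside its paralog, as 30 bases with the first element in capitals (T for U).
CSF2: tttttaaaatATTTATTTAtttatttattt
CXCL1: gaagtcttctATTTATTTAtttattcatta
CXCL2: gaagtcttctATTTATTTAtttatttattt

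CSF2 and CXCL2 held 4 overlapping copies each, BIRC3 held 3 and CXCL1 held 2, while CSF3 held none of this length but 7 of the shorter ATTTA. With all 10 libraries, tested members with the element had a median log2 fold change of -0.27 and those without it -0.20. Among those with it CSF2 fell, while the values of CXCL8 were higher in siUSP9X. Of 12 genes for AU-rich element binding and cytokine mRNA decay, 0 passed the threshold with edgeR, 2 had an unadjusted p under 0.05, and DESeq2 called 2 and limma-voom 0. At that unadjusted p stood 16.7% of the 12 and 27.8% of all tested genes. Over all 13934 tested genes DESeq2 called 1264 higher and 1078 lower. The 2 with the smallest p were RC3H2, which encodes the RNA-binding protein roquin-2 (log2 fold change 1.09 ± 0.32, edgeR adjusted p = 0.0582), and ELAVL1, which encodes the stabilizing protein HuR (-0.30 ± 0.11, adjusted p = 0.113). Without siUSP9X replicate 2, RC3H2 rose (0.61, edgeR adjusted p = 0.000385) and ELAVL1 fell (-0.22, adjusted p = 0.0347), and the other 10 were not called. In that fit 11.9% of all 14086 tested genes rose and 11.5% fell.

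The upstream machinery of the pathway was well measured. Of 26 receptors and adaptors, 25 were tested, 1 fell and 24 did not pass the threshold, with a median log2 fold change of -0.13. That is 4% called, against 7.31% of all tested genes. The gene that fell was TNFRSF11A, which encodes the receptor RANK (4.40 ± 0.726 to 2.85 ± 0.259 CPM, SD, n = 5 per group, log2 difference -0.62 ± 0.16, edgeR adjusted p = 0.0379), a call that held for 2 of the 10 libraries left out in turn. Without siUSP9X replicate 2 the log2 fold change of TNFRSF11A was -0.59 (edgeR adjusted p = 0.0197). Of 20 genes of the IKK complex, the ubiquitin editors and other Rel or IkB proteins, all were tested, 1 rose (5%) and 19 did not pass. Their median was -0.21. BIRC2, which encodes cIAP1, the paralog of the BIRC3 product, rose from 167 ± 13.5 to 263 ± 79.8 CPM (log2 fold change 0.66 ± 0.17, adjusted p = 0.0437), with 0.45 (adjusted p = 0.000674) without siUSP9X replicate 2. Its call held in 2 of the same 10 fits. Without siUSP9X replicate 2, 3 of the receptors and adaptors rose and 6 fell, and 1 of the IKK list rose and 4 fell. Over all tested genes 11.9% then rose and 11.5% fell. The medians were then -0.020 for the receptors and adaptors and -0.093 for the IKK list.

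Other known NF-kB targets are given here beside all tested genes, of which 7.31% passed the threshold. Of 32 such genes outside the members, 28 were tested, 1 rose (3.57%), 0 fell and 27 did not pass, with a median log2 fold change of -0.15. Without siUSP9X replicate 2, 4 rose and 4 fell, with a median of -0.037. In that fit 11.9% of all 14086 tested genes rose and 11.5% fell. CD69, a membrane protein best known as an early activation marker of lymphocytes, rose from 1.49 ± 0.5004 to 5.13 ± 1.65 CPM (SD, n = 5 per group, log2 difference 1.77 ± 0.28, edgeR adjusted p = 0.00469), whichever of the 10 libraries was left out. Of 25 receptors and blockers for the members' ligands, 6 were tested and 0 passed with edgeR, while 2 had an unadjusted p under 0.05, and DESeq2 called 1 and limma-voom 0. At that unadjusted p stood 33.3% of the 6 and 27.8% of all tested genes. DESeq2 called 1264 higher and 1078 lower of all 13934 tested genes. The 2 with the smallest p were IL11RA, the IL-11 receptor (log2 fold change -0.88 ± 0.25, adjusted p = 0.0561), and LIFR, the LIF receptor (0.92 ± 0.35, adjusted p = 0.124). Without siUSP9X replicate 2, 7 were tested, and IL11RA fell (-0.69, edgeR adjusted p = 0.00371) and LIFR rose (0.35, adjusted p = 0.0279).

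Interferon response genes overlap in control with IRF1 and CXCL10. Of 22 listed genes (21 found in the table) 19 were tested, 2 rose, 2 fell and 15 did not pass, with a median log2 fold change of -0.35. That is 21.1% called, against 7.31% of all tested genes. Without siUSP9X replicate 2 there were 2 higher and 5 lower, with a median of -0.27, where 11.9% of all 14086 tested genes were higher and 11.5% lower. STAT2, a transcription factor of the interferon response, fell by 0.34 on the log2 scale (edgeR adjusted p = 0.0454), a call that held for 1 of the 10 libraries left out in turn. That library was siUSP9X replicate 2, without which the log2 fold change of STAT2 was -0.32 (edgeR adjusted p = 0.00934). The guanylate-binding protein genes GBP1 and GBP2 rose by 0.80 and 0.80 (adjusted p = 0.0202 and 0.0227), and kept their calls in 6 and 7 of those 10 fits. Without siUSP9X replicate 2 they rose by 0.59 and 0.71 (edgeR adjusted p = 8.43e-05 and 0.00481).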

How the data were processed

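The authors deposited raw counts, as whole numbers by gene symbol, for 10 RNA-seq libraries. Per the labels' protocols, TRIzol was used for extraction and a stranded mRNA kit for the libraries. RSEM, DESeq2 and hg38 appear in the submitters' processing notes without versions or roles, so the counts may be rounded RSEM estimates. The aligner and annotation are not given in the sources used here. Samples were grouped and numbered by title. The quasi-likelihood test of edgeR 4.0.16 (R 4.3.3, robust estimation) was run on the whole table, after TMM scaling and the filterByExpr filter (minimum count 10), in a model of group alone. Two-sided p-values were Benjamini-Hochberg adjusted over all tested genes, with a threshold of 0.05, and SE is that of the log2 fold change. The test was checked on simulated counts.

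Chi-square per degree of freedom was 5.25 or more for each pair of replicates, beyond sampling noise, and each library was taken as 1 replicate. Positions and exon lengths come from GENCODE release 29 (GRCh38) and promoters from RefSeq (GRCh38.p14). The kappaB consensus was searched on both strands. Members, pathway lists and tests were chosen with earlier results of these data known. Named are all members, USP9X, the markers PECAM1, CDH5, VWF, KRT8 and KRT18, and in each pathway list up to 4 genes past the threshold or else the 2 with the smallest p; MT-RNR2, ESAM, PROCR, ENG and EGFL7 were chosen after their values were seen. An item that this rule selects is not reported here. Alternatives were other scalings and filters, DESeq2 1.42.0, limma-voom (limma 3.58.1), the replicate block and each library left out in turn. The block without replicate number 2 was added after seeing the data.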

Additional observations from a re-analysis of the deposited data

Results flagged for a closer look

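A library of 5 far from the others of its group, by Dixon's test at the 95% level, was found for 7 of 58 groups of values examined (28 members and USP9X in each group), where chance gives about 1 in 20. In 6 of the 7 it was siUSP9X replicate 2. CXCL1 was at 139 CPM there and at 266 to 308 CPM elsewhere in its group, and CCL2 at 39.9 against 58.04 to 64.3 CPM. RELA was at 74.8 against 118 to 136 CPM, NFKBIA at 93.8 against 204 to 226 CPM, and IRF1 at 31.2 against 53.7 to 58.2 CPM. BIRC3 was higher there, at 646 against 203 to 288 CPM. The other case was CSF2 in siUSP9X replicate 3, at 2.11 CPM, where the rest of the group had 0.498 to 0.862 CPM.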

How the results depend on the processing

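CSF2 and CSF3 fell with an adjusted p under the threshold in every alternative that tested them (17 and 18, and 1 added later). Their log2 fold changes ranged from -2.81 to -2.17 and from -1.71 to -1.46. With 1 library left out there were 0 to 4 higher and 2 to 9 lower members, and 170 to 1674 higher and 189 to 1620 lower genes in all. The highest counts were without siUSP9X replicate 2, the lowest over all genes without siCtrl replicate 3, and the 1 higher member without siCtrl replicate 1 was IL1RL1. A filter of 5 CPM in 5 libraries, which leaves out CSF2, gave 1 lower member. DESeq2 gave 1 higher and 8 lower members (1264 higher and 1078 lower genes). With limma-voom there were 1 higher member, IL1RL1, and 3 lower members (546 higher and 491 lower genes). The replicate block gave 0 higher and 2 lower members, with 34 higher and 57 lower genes. Correlations of same-numbered deviations ran from -0.49 to 0.28, and only siCtrl replicate 4 correlated best with the siUSP9X library of its own number. These deviations include siUSP9X replicate 2, which lay far from its group, so they cannot settle whether the numbers pair the libraries. The block without replicate number 2, chosen after seeing the data, gave 3 higher and 12 lower members (1582 and 1855 genes). With 1 library left out, log2 fold changes ran from -0.34 to 0.0056 for VCAM1 (positive without siCtrl replicate 5), from -0.22 to 0.12 for CXCL3, from -0.11 to 0.026 for IL6 and from -0.25 to 0.27 for BIRC3, and the last 3 turned sign without siUSP9X replicate 2. In the block without number 2 those 3 were at 0.14, 0.044 and -0.32. CCL20, near 0, ran from -0.075 to 0.13 and was negative without siCtrl replicates 1 or 4 or siUSP9X replicates 1, 3 or 4, with upper-quartile scaling (-0.010), no filter (-0.018), limma-voom (-0.025) and the replicate block (-0.022). The cause of these changes was not tested. Members under 1 CPM rest on few counts, which limits what could be detected for VCAM1 and the 8 untested genes.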
